A study of Homo sapiens with 2 samples.

Results

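The genes described here encode the collagen prolyl and lysyl hydroxylases. They are 9 of the 18923 gene symbols on the array: the collagen prolyl 4-hydroxylase subunits P4HA1, P4HA2 and P4HB, the prolyl 3-hydroxylases LEPRE1, LEPREL1 and LEPREL2 (now named P3H1, P3H2 and P3H3) and the lysyl hydroxylases PLOD1, PLOD2 and PLOD3. A probeset, a small group of probes placed along a gene, was taken where the platform annotation gave it exactly 1 of these symbols, which gave 194 probesets in all; 1 further probeset of LEPREL2 carried several symbols and was left out. The set was chosen with differences between these arrays already known, so the differences of its members are a description and carry no test.

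The arrays compared total RNA of cultured MKN45, an established human gastric cancer cell line, with that of MKN45P, a derivative the labels describe as highly metastatic. Each line was grown untreated in RPMI medium with serum and hybridised to 1 exon array. The question stated for the series is how the metastatic line differs from its parent. With 1 array a line there was no replicate, so no difference could be set against the spread between cultures. The ranges given below are interquartile ranges over the probesets of a gene. They describe how its probesets differ and are not an error of the difference between the lines. Values are on the log2 scale, where a difference of 1 is 2-fold.

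Collagen chains are modified on proline and lysine residues as they enter the endoplasmic reticulum. Prolyl 4-hydroxylase, a tetramer of catalytic alpha chains with protein disulfide isomerase as its beta chain, makes the hydroxyproline that keeps the triple helix stable at body temperature. Prolyl 3-hydroxylases act at far fewer prolines, and lysyl hydroxylases make the hydroxylysine that carries sugars and forms cross-links. The hydroxylating enzymes need iron, oxygen, ascorbate and 2-oxoglutarate, and the genes for several of them are known targets of the hypoxia-inducible factors.

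Both measured prolyl 4-hydroxylase alpha chains and all 3 lysyl hydroxylases lay higher in MKN45P, whereas the prolyl 3-hydroxylase LEPREL1 was far lower and its relatives LEPRE1 and LEPREL2 were level. P4HA1 differed by 1.75, P4HA2 by 1.59, PLOD3 by 1.07 and PLOD2 by 1.01, and LEPREL1 by -3.47. Genes counted as measured when they had 4 or more probesets whose levels, averaged over the arrays, had a median of at least 1.92; that value is the median level of the full table. Of the 9 members 8 were measured; P4HB had only 1 probeset under its symbol. Among the 8, 4 were at least 2-fold higher in MKN45P, against 4.58% of the 13130 measured genes, and 1 was at least 2-fold lower, against 1.20%. Since the members were picked with these differences in view, nothing is read from that contrast. The median difference of the 8 was 0.93, and that of all measured genes was 0.03.

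**Figure D1:**
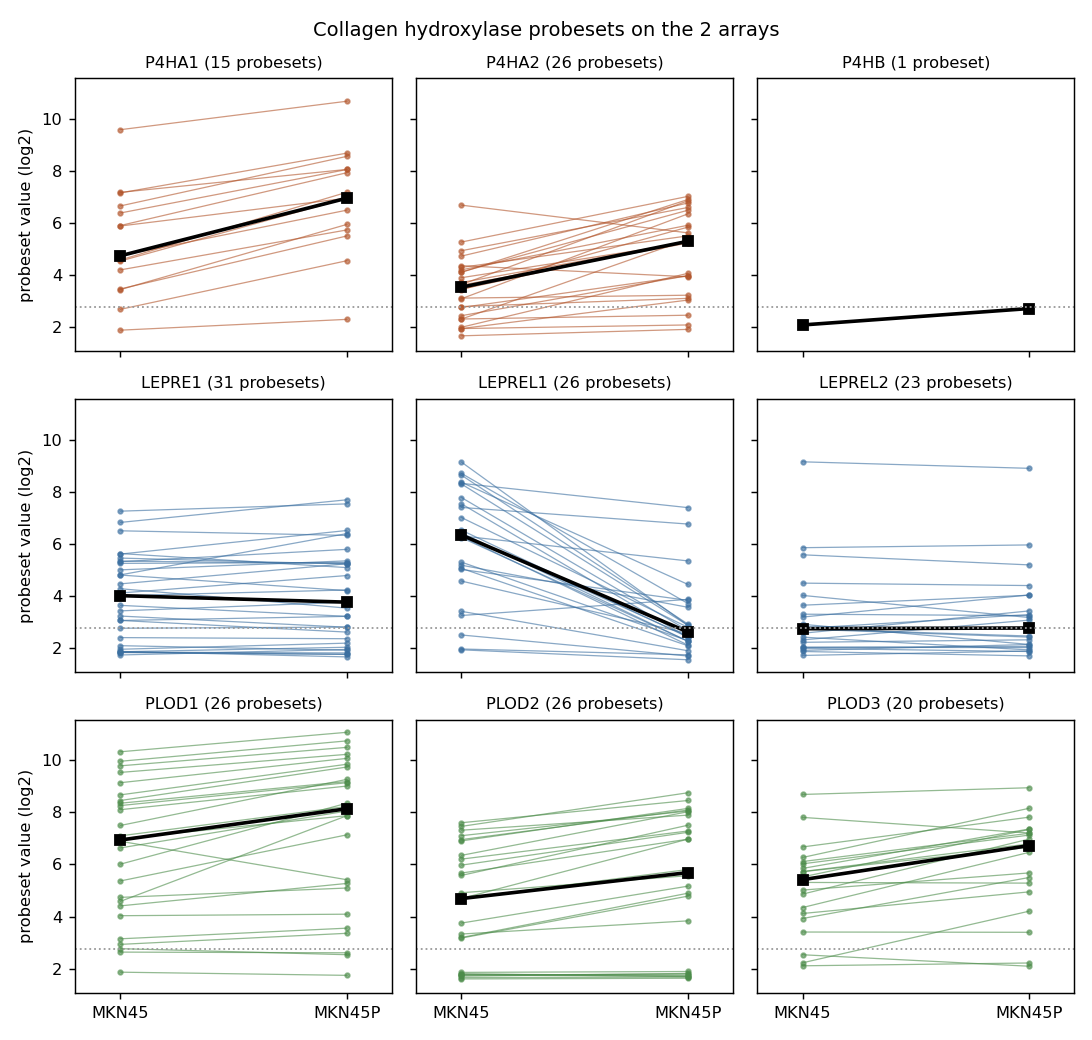
Log2 value of every probeset of the 9 genes on the MKN45 and the MKN45P array, joined by a line; black squares are the gene's median on each array and the dotted line is 2.77, the 75th percentile of level over all probesets. All 15 lines of P4HA1 slope up, while 25 of the 26 lines of LEPREL1 slope down.

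The 250 bases before the RefSeq start of the 5 genes past 2-fold are shown because these genes moved apart in opposite directions. The sequences are from RefSeq, build GRCh38.p14, read from 5′ to 3′ on the gene's own strand. Capitals mark the letters ACGTG, on either strand, which form one version of the core of the element bound by hypoxia-inducible factors.
P4HA1, chr10:73096867-73097116, minus strand: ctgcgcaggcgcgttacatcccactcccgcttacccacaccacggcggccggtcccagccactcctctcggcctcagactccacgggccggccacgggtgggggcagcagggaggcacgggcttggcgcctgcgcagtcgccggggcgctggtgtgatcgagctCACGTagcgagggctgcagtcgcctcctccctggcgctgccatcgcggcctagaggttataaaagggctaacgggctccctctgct
P4HA2, chr5:132227092-132227341, minus strand: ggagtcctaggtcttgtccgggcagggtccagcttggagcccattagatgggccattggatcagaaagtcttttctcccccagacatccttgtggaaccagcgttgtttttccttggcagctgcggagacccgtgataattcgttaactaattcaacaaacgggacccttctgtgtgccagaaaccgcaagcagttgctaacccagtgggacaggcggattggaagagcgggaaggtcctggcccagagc
PLOD2, chr3:146161185-146161434, minus strand: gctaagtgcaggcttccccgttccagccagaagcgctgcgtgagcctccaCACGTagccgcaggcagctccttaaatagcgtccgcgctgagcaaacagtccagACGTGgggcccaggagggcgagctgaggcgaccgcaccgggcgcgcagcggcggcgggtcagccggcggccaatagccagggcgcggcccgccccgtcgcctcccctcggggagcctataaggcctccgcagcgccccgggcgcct
PLOD3, chr7:101217582-101217831, minus strand: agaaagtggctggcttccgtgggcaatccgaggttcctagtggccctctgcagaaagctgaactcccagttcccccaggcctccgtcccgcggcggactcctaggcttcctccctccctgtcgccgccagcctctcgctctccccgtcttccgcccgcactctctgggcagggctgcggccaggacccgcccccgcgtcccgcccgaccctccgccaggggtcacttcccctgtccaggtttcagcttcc
LEPREL1, now P3H2, chr3:190122279-190122528, minus strand: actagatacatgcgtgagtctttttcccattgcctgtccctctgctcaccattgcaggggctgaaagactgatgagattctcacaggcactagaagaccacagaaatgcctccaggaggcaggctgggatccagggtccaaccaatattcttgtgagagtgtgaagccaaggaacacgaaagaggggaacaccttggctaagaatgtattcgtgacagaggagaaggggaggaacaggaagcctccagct
Of these windows ACGTG stood in that of P4HA1, at position -86 from the start, and in that of PLOD2, at -200 and -146. It stood in 2 of the windows of the 9 genes, all of which had one, and in 18.5% of 35116 RefSeq windows of this length. The other version of the core, GCGTG on either strand, stood in 5 of the 9 windows and in 32.2% of all; where matches of both versions overlapped they were counted as 1, and either version stood in 6 of 9 and in 43.2%. The windows of P4HA2, PLOD3 and LEPREL2 held neither. Of the windows shown, those of PLOD2 and LEPREL1 held GCGTG, which is left in small letters there. A match is a run of letters and not a binding site, and these arrays carry no measurement of binding.

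P4HA1, the main catalytic alpha chain of prolyl 4-hydroxylase in most cell types, had a median of 4.74 in MKN45 and 6.96 in MKN45P. Every one of its 15 probesets was higher in MKN45P, 13 of them by 2-fold or more, and the gene difference was 1.75 (interquartile range over probesets 1.31 to 2.03), a ratio of 3.37. The MKN45 levels of its probesets spanned 1.88 to 9.59 and the MKN45P levels 2.30 to 10.7. What sets the probesets apart in level was not tested. Among the 14 probesets with a level at or above 2.77, the differences ran from 0.88 at probeset 3294168 (7.18 in MKN45 and 8.06 in MKN45P) to 2.60 at probeset 3294202 (4.58 and 7.18). The shift was thus present along the full set of P4HA1 probesets with signal. Of all measured genes 1.12% had a difference as large or larger.

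P4HA2, the second alpha chain, had a median of 3.53 in MKN45 and 5.30 in MKN45P. Its difference was 1.59 (0.51 to 2.07 over 26 probesets, 24 of them higher), a ratio of 3.01. The difference was not even along the gene. After its values were seen, the probesets were divided by number where the run of 2-fold higher ones ends, so that the 18 before that point, 2875196 to 2875231, were 2-fold higher by construction; they differed by 1.10 to 3.22. Of the 8 from 2875233 on, 3 of which had a level below 2.77, 1 was 2-fold higher, 6 were within 2-fold and 1 was 2-fold lower, with a median of 0.14. The extremes lay close together there: probeset 2875234 went from 3.09 to 6.35, a difference of 3.26, and probeset 2875240 from 6.69 to 5.62, a difference of -1.06.

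P4HB, protein disulfide isomerase, serves as the beta chain of the tetramer. Its single probeset read 2.08 in MKN45 and 2.71 in MKN45P, both below 2.77, and the difference of 0.63 therefore says little about the gene.

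**Figure D2:**
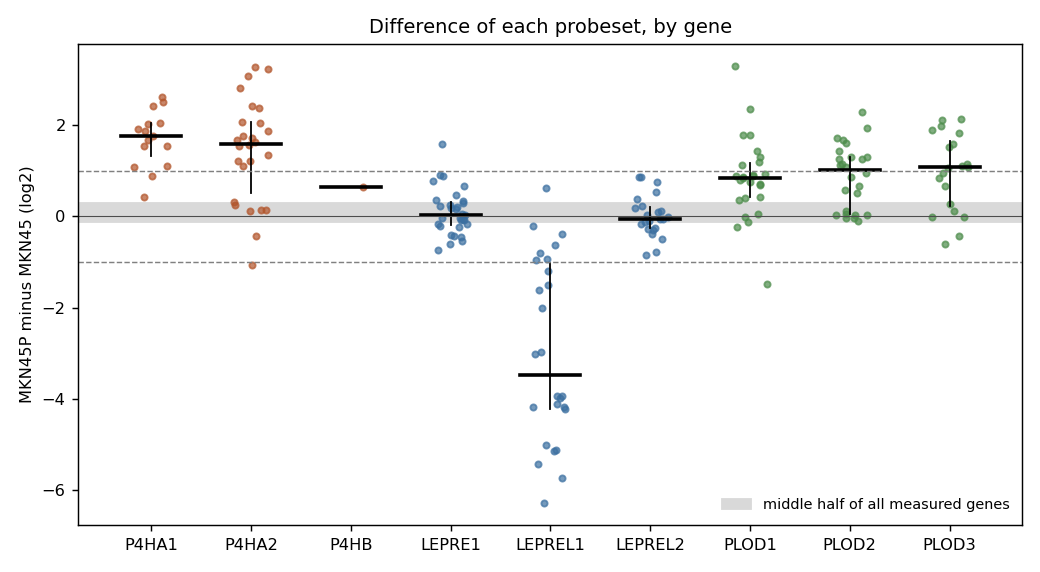
Difference of each probeset, MKN45P minus MKN45 in log2 units, for the 9 genes; thick bars are gene medians, thin bars interquartile ranges over probesets, dashed lines 2-fold, and the grey band is the interquartile range of the gene differences of all 13130 measured genes (-0.13 to 0.30). The range of LEPREL1, -4.21 to -1.02, lies apart from those of the other 7 measured members.

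The lysyl hydroxylases were all higher in MKN45P and close to the 2-fold line. Their gene differences were smaller than those of P4HA1 and P4HA2. However, the interquartile range of P4HA2 (0.51 to 2.07) overlapped all of theirs. That of P4HA1 (1.31 to 2.03) overlapped that of PLOD3 (0.22 to 1.64). PLOD1, lysyl hydroxylase 1, which acts on lysines of the helical part of collagen, had medians of 6.94 in MKN45 and 8.14 in MKN45P. The difference of 0.85 (0.41 to 1.16, 22 of 26 probesets higher) left it just under 2-fold. Its 23 probesets with signal had a median difference of 0.88, and 22 of them were higher. The one that was lower, probeset 2320599, went from 6.89 to 5.41, and the one with the greatest rise, probeset 2320610, from 4.58 to 7.88, a difference of 3.29.

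PLOD2, the enzyme of telopeptide lysines and so of stable cross-links, had medians of 4.69 in MKN45 and 5.69 in MKN45P. Its difference of 1.01 (0.06 to 1.30, 23 of 26 probesets higher) was just past 2-fold. Of its probesets 8 were below 2.77, and their median difference was 0.03. All 18 with signal were higher in MKN45P, by 0.51 to 2.28, with a median of 1.26. PLOD2 was under 2-fold in 5 of the 6 alternatives that act on a gene's value, at 0.85 to 1.00.

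PLOD3, which hydroxylates lysine and can also add the sugars, had medians of 5.42 and 6.73. It was higher by 1.07 (0.22 to 1.64), at 16 of its 20 probesets, and 11 probesets were 2-fold higher. Among its 18 probesets with signal the lowest difference was -0.60 at probeset 3064572 (7.81 to 7.21) and the highest 2.12 at probeset 3064570 (4.35 to 6.47). The interquartile ranges of PLOD1, PLOD2 and PLOD3 overlapped one another, and no order among these genes can be drawn from them. Quantile normalization placed PLOD3 at 0.91 and the mean over probesets at 0.96, both under 2-fold.

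The prolyl 3-hydroxylases did not move as a class. LEPRE1, which works in a complex with CRTAP and the prolyl isomerase cyclophilin B, had medians of 4.005 in MKN45 and 3.76 in MKN45P. Its difference was 0.03 (-0.19 to 0.31), with 16 of 31 probesets higher and 15 lower. LEPREL2 had medians of 2.73 and 2.76 and a difference of -0.05 (-0.27 to 0.20, 10 of 23 probesets higher). Of its probesets 12 were below 2.77, so a difference in this gene could be compressed. CRTAP, chosen here by its role after its value was seen, differed by -0.10 (-0.41 to 0.10), and PPIB, which encodes cyclophilin B and was chosen in the same way, by 0.09 (-0.04 to 0.14).

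LEPREL1, the prolyl 3-hydroxylase known to act on basement membrane collagen, had medians of 6.33 in MKN45 and 2.61 in MKN45P. Its difference was -3.47 (-4.21 to -1.02), a ratio of 11.1, with 25 of 26 probesets lower and 19 of them by 2-fold or more. It was the third lowest of all 13130 measured genes. The median in MKN45P was below 2.77, near the low end of the scale, where a difference can be smaller than that in RNA. Its interquartile range, 3.19 wide, was exceeded by only 0.198% of measured genes, whose median width was 0.53.

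LEPREL1 had separate stretches of large and small differences, noticed after the values were seen. Its probeset numbers have one wide gap. The 18 probesets below it, 2710475 to 2710511, had medians of 6.47 in MKN45 and 2.40 in MKN45P and a median difference of -4.14, and 16 of them were 2-fold lower. The 8 above it, 2710539 to 2710547, had medians of 5.09 and 3.84 and a median difference of -0.95, and 3 of them were 2-fold lower. The stretches overlapped at single probesets. Those below the gap differed by -6.28 to -0.38, and those above it by -2.01 to 0.62. The greatest fall was that of probeset 2710510, from 9.14 to 2.86. The one probeset that was higher in MKN45P, 2710547, went from 3.24 to 3.86.

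Positions of single probesets were not used here, but on the strands that hold these genes their numbers mostly follow the order of genes. Across 340 measured genes on the minus strand of chromosome 3, where LEPREL1 lies, gene position and median probeset number had a Spearman rho of 1, and the same value was found for 233 genes on the minus strand of chromosome 5, where P4HA2 lies. For the other members' strands rho lay between 0.89 and 1, the lowest being on chromosome 1. These are correlations across genes, given as a description. If the numbers run the same way within a gene, the higher ones in LEPREL1 and P4HA2 would lie toward the start of the gene, which was not tested. Divided at the widest gap in its numbers, P4HA2 had a median difference of 2.04 over the 7 lower-numbered probesets and 1.35 over the 19 higher-numbered ones.

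**Figure D3:**
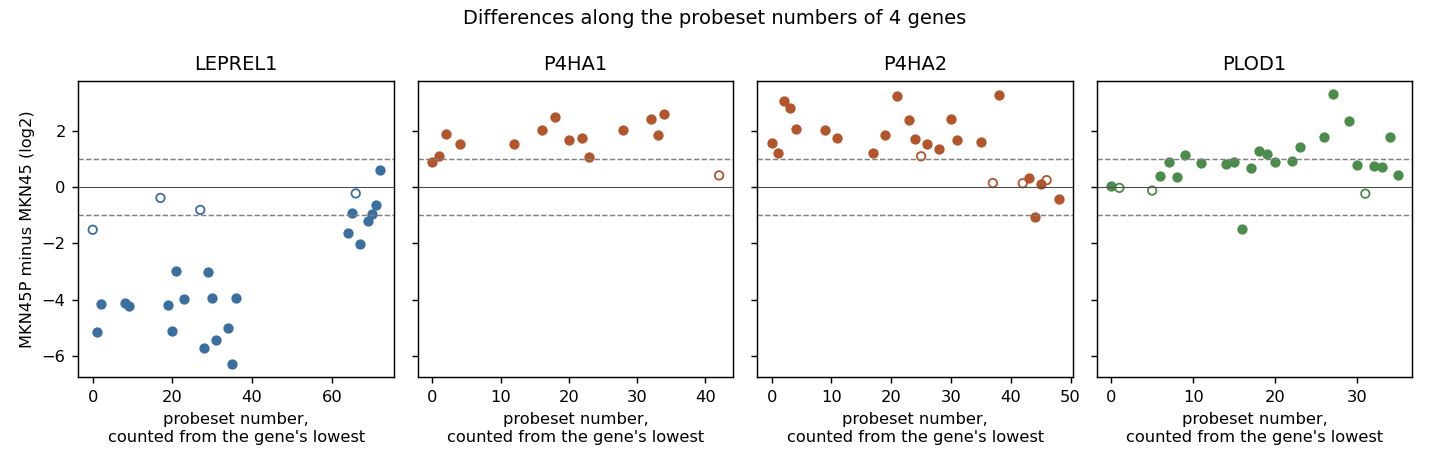
Difference of each probeset, MKN45P minus MKN45 in log2 units, against its number counted from the lowest of the gene, for LEPREL1, P4HA1, P4HA2 and PLOD1; filled points have a level at or above 2.77 and open points lie below it, and dashed lines mark 2-fold. LEPREL1 shows a low stretch (median -4.14) and a nearer one (median -0.95), and in P4HA2 the points from probeset 2875233 on, a division made after the values were seen, have a median of 0.14.

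In RefSeq gene order the nearest measured gene on either side of each of the 9 members gave 18 neighbours. None of the 18 was 2-fold higher or 2-fold lower. With 5.78% of measured genes past 2-fold in either direction, a count of 0 in so short a list is no result about the neighbours. Several had medians below 2.77 on both arrays, where differences can be compressed, among them CSF2, PDLIM4, GPR162 and ZNHIT1. Beside LEPREL1 on chromosome 3, FLJ42393 differed by 0.06 and the claudin gene CLDN16 by -0.10, both at levels near the low end. Beside P4HA1 on chromosome 10, CCDC109A, now MCU, the pore of the mitochondrial calcium uniporter, differed by -0.41 and ECD by 0.63. Beside P4HA2 on chromosome 5, CSF2 differed by -0.07 and PDLIM4 by -0.26. The neighbour with the largest value was MFN2, the mitochondrial fusion gene beside PLOD1 on chromosome 1, at 0.71 (0.34 to 1.08).

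Over 7 lists of genes related to the hydroxylases, members left out, 132 different genes were measured, of which 10 were 2-fold higher and 1 was 2-fold lower. That is 8.33% past 2-fold, against 5.78% of all measured genes. The lists were chosen with earlier results of these data known, so nothing is read from that contrast. Among 16 collagen folding and export partners, CREB3L2 was higher and CREB3L1 lower; both encode transcription factors that are held in the endoplasmic reticulum membrane and act on secretion. CREB3L1 read 7.57 in MKN45 against 4.79 in MKN45P, with a difference of -2.75 (-3.05 to -2.10), with none of its 16 probesets higher. CREB3L2 read 4.41 and 6.48, with a difference of 1.72 (0.45 to 2.56), with 17 of 18 probesets higher. The median of that list was 0.07.

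The disulfide isomerases and partners of P4HB had 4 of 18 measured genes 2-fold higher, against 4.58% of all measured genes, and none 2-fold lower, against 1.20%. The median was 0.44, and that of all measured genes 0.03, or 0.12 over measured genes with a level at or above 2.77. QSOX1, a sulfhydryl oxidase, went from 5.56 in MKN45 to 7.68 in MKN45P (difference 1.92). TXNDC4, now ERP44, which retains client proteins in the early secretory pathway, went from 4.004 to 6.50 (1.69), and the isomerase gene PDIA5 from 3.93 to 6.49 (1.60). DNAJC10, a disulfide reductase of the endoplasmic reticulum, went from 4.65 to 6.74 (1.26).

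Other oxygenases that use 2-oxoglutarate had 1 of 22 measured genes past 2-fold, or 4.55%, close to the 5.78% of all measured genes. HIF1AN, the asparaginyl hydroxylase that limits hypoxia-inducible factors, was higher by 1.07 (0.77 to 1.48, all 10 probesets higher); the list's median was 0.25. In the list of ascorbate, iron and 2-oxoglutarate supply 1 of 13 passed, or 7.69%, against 5.78% of all measured genes. It was IDH1, an isocitrate dehydrogenase that yields 2-oxoglutarate, which was higher by 1.15 (0.78 to 1.25). OGDH, the lowest gene of that list, was at -0.93 (-1.03 to -0.67), with 1 of its 27 probesets higher. The list's median was 0.07. Of 32 measured genes of the hypoxia-inducible list 3 were 2-fold higher, BNIP3L (1.49), ENO2 (1.15) and DDIT4 (1.07), and none was 2-fold lower. That is 9.38% 2-fold higher, against 4.58% of all measured genes. The list also held regulators of the hypoxia response, HIF1A (0.25), EPAS1 (-0.19), ARNT (0.29) and VHL (0.75). Its lowest gene was GAPDH (-0.58). Among its other genes within 2-fold, CA9 (-0.26), EGLN1 (-0.28) and ALDOA (-0.23) were lower. LDHA (0.02), ADM (0.03), EGLN3 (0.04) and SLC2A1 (0.05) were level, and PDK1 (0.90) and VEGFA (0.67) were higher. Of the 32, 25 (78.1%) were above 0, against 54.9% of all measured genes, and the median was 0.23. Over the 24 with a level at or above 2.77 the median was 0.25, against 0.12 for all measured genes at such levels. These lists were short and were chosen with earlier results of these data known, so nothing is read from these contrasts.

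Among the collagen chains, the substrates of these enzymes, none of 26 measured genes passed 2-fold; with 5.78% of all measured genes past it, a count of 0 in so short a list is no result about the chains. Their levels were low, 19 of the 26 having a median level below 2.77, where differences can be compressed. The median difference was -0.07 over all 26, of which 7 were above 0, and 0.21 over the 7 with a level at or above 2.77, of which 6 were above 0. The chains with the largest differences were COL4A2, of basement membrane collagen, which went from 5.51 to 6.30 (difference 0.71, 0.31 to 1.19), and COL17A1, of hemidesmosomes, from 3.48 to 4.25 (0.55, 0.36 to 1.09). None of 10 measured genes of propeptide cleavage and cross-linking passed 2-fold either, 6 of them at levels below 2.77, with a median of -0.13; the procollagen peptidase ADAMTS2 was at -0.40 and the enhancer protein PCOLCE at -0.26.

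**Figure D4:**
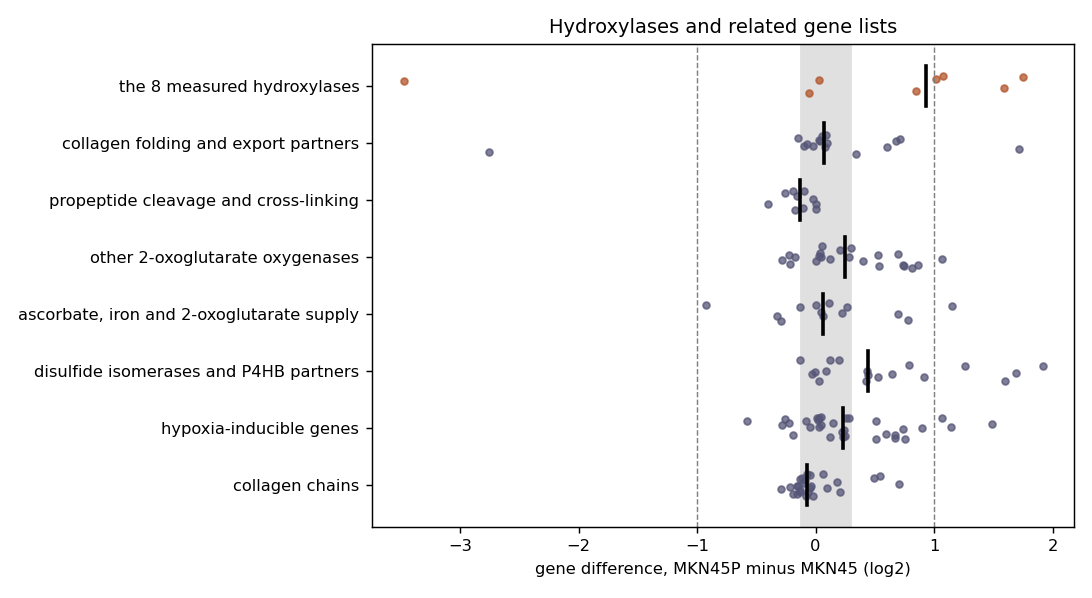
Gene differences, MKN45P minus MKN45 in log2 units, of the 8 measured hydroxylases and of the measured genes of 7 related lists; each point is a gene, black bars are medians, dashed lines mark 2-fold and the grey band is the interquartile range over all measured genes. The hydroxylases have a median of 0.93 and the collagen chains one of -0.07, or 0.21 over the 7 chains with a level at or above 2.77.

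Markers of other cell types were low on both arrays. All 8 epithelial markers with probesets had a level, averaged over both arrays, at or above 2.77, CDH1 reading 10.3 in MKN45 and 10.7 in MKN45P. None of 11 fibroblast, 5 endothelial or 6 immune markers reached that averaged level, and none of them differed 2-fold. The fibroblast markers, from cells that make much collagen, spanned 1.66 to 2.62 in MKN45, and 1.65 to 2.86 in MKN45P, the highest being COL1A1.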

How the data were processed

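Total RNA of 1 MKN45 and 1 MKN45P culture was read on exon arrays. The authors deposited 1 log2 value per probeset and array, 877986 in all; the scale was read from the values, which reach 13.5. Per the submitters' processing notes, Partek and hg18 were used; how background was corrected, probes summarised and arrays normalized is not given in the sources used here. The deposited values were not rescaled. Of the probesets, 286871 had exactly 1 symbol, 3137 several and 587978 none in the platform annotation, which can be old. All 9 symbols matched RefSeq (GRCh38.p14), 3 through an older name; that table served for names and gene order.

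A gene's difference was the median over its probesets of MKN45P minus MKN45. With 1 array a line no test was possible, the number of arrays limits the precision, and no p-value is given. Members and lists were chosen with earlier results of these data known. The genes named were all members, every list gene past 2-fold (otherwise the largest 2), and the nearest measured neighbours. CRTAP, PPIB and regulators of the hypoxia response were added by role. GAPDH and OGDH, as the lowest of their lists, were added after values were seen. So were the unmeasured hypoxia-list genes and further hypoxia-list genes within 2-fold. Python 3.11.15, numpy 2.4.6, pandas 2.3.3, scipy 1.17.1, statsmodels 0.14.6 and matplotlib 3.10.9 were used, and the gene step was tested on simulated data. The 8 alternatives were quantile, median and loess scaling, the mean of probesets, the difference of median levels, only probesets with signal, no level filter, and at least 10 probesets.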

Additional observations from a re-analysis of the deposited data

How the results depend on the processing

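P4HA1, P4HA2 and LEPREL1 stayed past 2-fold in the same direction under the 6 alternatives that act on a gene's value (the level filter and the minimum of 10 probesets leave it as it is), with ranges of 1.64 to 2.21, 1.43 to 1.76 and -3.96 to -2.96. PLOD3 ran from 0.91 to 1.31, PLOD2 from 0.85 to 1.26 and PLOD1 from 0.71 to 1.20, the last passing 2-fold only as the difference of median levels. The count of members 2-fold higher was 4 as reported and 2 with quantile normalization and with the mean of probesets. The difference of median levels placed LEPRE1 at -0.25 and P4HA1 at 2.21, the only 2 of 48 member values under those 6 that moved by more than 0.5 of the width of their interquartile range, and none of the called ones changed sign. With the difference of median levels, 1263 genes were 2-fold higher and 305 lower, and with only probesets with signal 1218 and 313, against 602 and 157. Under these settings 20 and 18 related genes were 2-fold higher in place of 10. The count of related genes 2-fold lower was 2 in place of 1 with both, with loess and with quantile normalization. No paired analysis was possible because each line had 1 array. Probesets near the low end limit what can be seen of LEPREL1 in MKN45P, of LEPREL2 and of P4HB.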

Other observations

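Probesets numbered within a member but carrying no symbol in the annotation belong to no comparison above. Within the numbers of LEPREL1 there were 14, of which 4 had a level at or above 2.77; these differed by -0.55 to -0.22, with a median of -0.48, and none was 2-fold lower. Within LEPRE1 there were 9, and the only one with signal differed by -1.32. Within P4HA1 there were 9 and within PLOD2 5, none with signal. Within P4HA2, PLOD1 and LEPREL2 only 1 each had signal, at -0.41, -0.63 and -0.79. The 2 with signal within PLOD3 were at 0.20 and 0.23.

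BNIP3, a hypoxia-inducible gene of mitophagy, had only 2 probesets and did not count as measured. Its medians were 2.80 in MKN45 and 5.18 in MKN45P, a difference of 2.39. BNIP3 was named after this value was seen. The other unmeasured genes of the hypoxia-inducible list were all within 2-fold: SLC2A3 (-0.11), PGK1 (0.24), TPI1 (0.30) and PGAM1 (0.03).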
